A study of Mus musculus with 12 samples.

Results

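The mitochondrial carriers of the solute carrier 25 (Slc25) family were taken as the rows of the deposited table whose symbol begins with Slc25a and a number. There were 47 such genes among 23988 rows, and 39 of them passed a filter of at least 1 fpm in at least 3 libraries, against 13675 of all genes. The table gives fpm, read as fragment counts per library divided by a size factor, without division by gene length. The 12 libraries, 3 in each of 4 groups, were made from jejunal tissue lysates of adult animals. DKO carried floxed Rab11a with VillinCreER (Rab11aL/L, VillinCreER+) on the Rab11b-/- background, AKO carried floxed Rab11a with VillinCreER, with no Rab11b allele named in its label, BKO was Rab11b-/-, and WT was labelled wild type. All groups, WT included, received tamoxifen at 40 mg/kg and were sampled 2 days later. The villin promoter drives this Cre in the intestinal epithelium, so cells of muscle, stroma, vessels and blood in the same tissue keep Rab11a. The labels do not say whether BKO and WT mice carried the floxed allele or the Cre, nor that numbered libraries are separate animals, so p-values measure the spread between these libraries. Rab11a and Rab11b encode closely related GTPases that act in endosome recycling. The series title concerns their shared role in dividing progenitors.

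Slc25 proteins are encoded in the nucleus and, with few exceptions, sit in the inner mitochondrial membrane, where each exchanges a set of metabolites, nucleotides, cofactors or ions between cytosol and matrix. They set which fuels reach the matrix and which products leave it. In the absorptive epithelium of the small intestine they serve the burning of glutamine and fatty acids, the supply of ATP for uptake, and the synthesis of citrulline from ornithine. Some members are present in nearly all cells and others only in a few tissues.

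Recovered reads numbered 19200380 to 29828587 per library. Rab11a was at 96 to 112 fpm in DKO, 48.9 to 67.2 in AKO, 199.8 to 275 in BKO and 182 to 188 in WT, and Rab11b was at 21.7 to 24.6 in DKO, 104 to 116 in AKO, 22.4 to 30.6 in BKO and 110.3 to 119.5 in WT. Every DKO library held more Rab11a RNA than every AKO library, so these groups differed in residual Rab11a as well as in Rab11b. The part of this in DKO against AKO and in the interaction was not tested. BKO replicate 3 stood apart from the other BKO libraries. Of the 15 carriers called lower in DKO than in WT it was the lowest BKO library for 13, and of the 4 called higher it was the highest for 4 (shares of 84.1% and 68.3% over all genes called lower and higher), so tests that involve BKO are also given without it. Xist, a transcript of female cells, was at 144 to 342 fpm in DKO, in AKO replicate 2 (223), BKO replicates 1 and 2 (201 and 254) and WT replicate 1 (158), and at most 0.22 in the other 5 libraries. Each gene was tested with limma on log2 of fpm plus 1 over all 13675 genes that passed the filter, and a change was called where the two-sided p, adjusted by Benjamini-Hochberg, was under 0.05. Log2 changes are on that scale, which understates the change of low genes, with their standard errors, and means carry standard deviations (n = 3 per group). A value ± error in parentheses beside an adjusted p is such a log2 change, DKO against WT unless another comparison is named.

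Summed over the 47 carriers and per kb of transcript, the family stood at 1914 ± 62.5 fpm per kb in DKO, 2617 ± 248 in AKO, 2833 ± 296 in BKO and 2845 ± 154 in WT. The DKO libraries, at 1986 or less, lay below all 9 others, which were at 2463 or more. The ADP/ATP carrier Slc25a5 held 37.5 ± 1.56% of that sum in DKO and 47.5 ± 0.185% in WT, and without it the sum was 1196 ± 63.5 fpm per kb in DKO and 1493 ± 86.3 in WT. Next in WT, as levels per kb, came the phosphate carrier Slc25a3 at 424, the ATP-Mg/phosphate carrier Slc25a24 at 152 and the dicarboxylate carrier Slc25a10 at 114 fpm per kb. Lengths are those of 1 principal transcript per gene, which may not be the one expressed here.

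In DKO against WT, 19 of the 39 tested carriers were called, 15 lower and 4 higher (48.7%, against 31.8% of all genes tested), with 26 at an unadjusted p under 0.05 (43.8% of all genes). The lower share was 38.5%, against 17.2% of all genes called lower, and the higher share 10.3%, against 14.6% called higher. The median log2 change was -0.42 over the tested carriers and -0.01 over all tested genes. Only 4 carriers, Slc25a48, Slc25a15, Slc25a22 and Slc25a42, were lower by at least 2-fold on this scale (6.8% of all genes were called so), and none was higher by as much. Slc25a53 passed the filter through AKO and WT libraries alone, where it was high, and is not read as support, though the counts and shares of carriers include it. The DKO and WT libraries did not overlap in 28 of 39 carriers, the 19 called and 9 others, nor in 55% of all tested genes. Of the 19 calls, 11 (Slc25a5, Slc25a10, Slc25a11, Slc25a13, Slc25a15, Slc25a33, Slc25a34, Slc25a35, Slc25a42, Slc25a44 and Slc25a48) held under each of 24 alternatives, edgeR, DESeq2 and every left-out library included. The number of called carriers was 11 without DKO replicate 2 and 12 without WT replicate 1, and 13 to 25 when any other single library was left out. Over all genes the share called in the same fits was 19.9%, 20.1% and 20.8% to 45.1%.

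**Figure D1:**
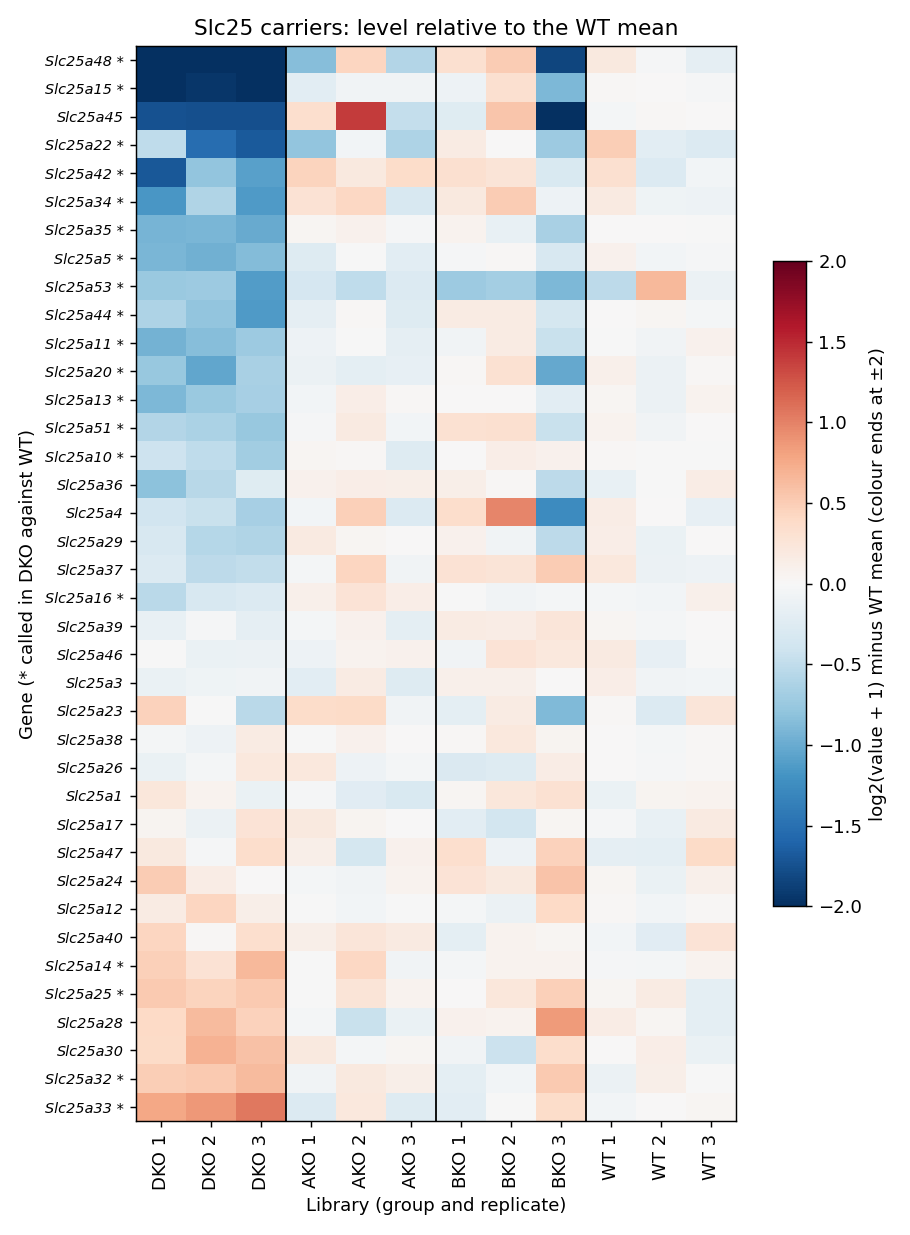
Level of 38 of the 39 tested Slc25 carriers in the 12 libraries, as log2(fpm + 1) minus the WT mean of the gene, with DKO, AKO, BKO and WT libraries from left to right, genes ordered by their change in DKO against WT and an asterisk on the 19 called. The 3 DKO libraries are blue (lower) for the upper genes, and BKO replicate 3 lies below all WT libraries in 13 of the 15 genes called lower.

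Markers of some cell types were called in DKO against WT, where 17.2% of all tested genes were called lower and 14.6% higher. Of 9 tested enterocyte markers 7 were called lower in DKO, and the summed level of the 10 listed was 5951 to 7701 fpm in DKO, 18732 to 31768 in AKO, 17351 (replicate 3) to 32576 in BKO and 23049.7 to 26152 in WT, with Lct at 0 in at least 1 library and no marker at 0 in all DKO libraries. All 5 fibroblast markers were called higher, with sums of 484 to 742 fpm in DKO and 156 to 201 in WT. Of 5 T cell markers 3 were lower (12.8 to 22.6 fpm in DKO, 88.1 to 114 in WT, 8.33 in BKO replicate 3), of 3 macrophage markers 2 were higher (72.6 to 80.1, against 44.2 to 51.3 in WT), and of 4 tested adipose markers 1 was higher (84.9 to 104, against 26.3 to 71.3 in WT, with Ucp1 at 0 in all DKO libraries). The adipose call, 1 of 4, is not read as a result about that cell type. No smooth muscle, B cell, endothelial or red blood cell marker was called by limma in DKO against WT. Their part in the carrier results was not tested, and in bulk tissue fewer cells of a type and less RNA per cell cannot be told apart.

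Carriers of nucleotides and phosphate went both ways, with 2 of 8 tested called higher (25%, against 14.6% of all genes), 1 lower (12.5%, against 17.2%) and 5 not called. Slc25a5 (ANT2), which exchanges matrix ATP for cytosolic ADP, was at 891, 863 and 917 fpm in DKO, 1404, 1669 and 1442 in AKO, 1654, 1698 and 1338 in BKO and 1771, 1608 and 1652 in WT. The 3 DKO libraries lay below all 9 others without overlap, and the change against WT was -0.91 ± 0.14, adjusted p = 0.0014. Of its 50-base words 46.6% also occur in other annotated transcripts, chiefly processed pseudogenes, so its reads may have been split or pooled. Slc25a33, a pyrimidine nucleotide carrier, was at 9.07, 9.69 and 11.3 fpm in DKO, 3.88, 5.84 and 3.95 in AKO, 4.08, 4.84 and 6.57 in BKO and 4.69, 4.94 and 5.05 in WT. The DKO libraries were above all others, with the largest rise of the family (0.90 ± 0.19, adjusted p = 0.00607), and 12.6% of its 50-base words are shared with an antisense transcript, which this kit cannot separate by strand. Slc25a25, an ATP-Mg/phosphate carrier regulated by calcium, was at 50.7, 47.6 and 50.4 fpm in DKO, 34.6, 41.8 and 36.5 in AKO, 35.2, 40.9 and 48.7 in BKO and 35.9, 39 and 30.3 in WT. DKO lay above WT without overlap, with BKO replicate 3 within the DKO range (0.50 ± 0.14, adjusted p = 0.0218). The Slc25a25 call was lost without DKO replicates 1, 2 or 3 or WT replicates 1 or 3 (adjusted p up to 0.0879).

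The next most abundant members of this class, Slc25a3 and Slc25a24, were not called. Slc25a3, which brings phosphate into the matrix, was at 622, 644 and 652 fpm in DKO, 591, 765 and 572 in AKO, 731, 729 and 684 in BKO and 747, 647 and 656 in WT. DKO and WT overlapped, with a change of -0.09 ± 0.13, adjusted p = 0.602. Slc25a24 was at 745, 577 and 522 fpm in DKO, 510.1, 496 and 547 in AKO, 631, 596 and 779 in BKO and 535, 474 and 559.5 in WT (0.22 ± 0.16, adjusted p = 0.295), also with overlap. Slc25a4 (ANT1), the adenine nucleotide carrier of muscle and heart, was at 68.9, 65.9 and 56.9 fpm in DKO, 87.2, 126 and 75 in AKO, 116, 179.9 and 37.4 in BKO and 101, 90.9 and 80.9 in WT. DKO lay below WT without overlap, but BKO replicate 2 was the highest and BKO replicate 3 the lowest of all 12, and the change was -0.50 ± 0.44, adjusted p = 0.399. The summed smooth muscle markers were 1313 to 2360.4 fpm in DKO, 977 to 2467 in AKO, 370.2 to 1215 in BKO (lowest in replicate 3) and 889 to 1521 in WT, and their part in Slc25a4 was not tested.

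The carboxylate carriers held 2 falls among 3 tested genes (66.7%, against 17.2% of all genes called lower). Slc25a11, which exchanges malate for 2-oxoglutarate in the malate-aspartate shuttle, was at 55.7, 59.4 and 65 fpm in DKO, 100.5, 107 and 95.3 in AKO, 103, 121 and 79 in BKO and 107, 103 and 114 in WT. Every DKO library was below every other library (-0.83 ± 0.14, adjusted p = 0.00222). Slc25a10, which exchanges malate or succinate for phosphate, was at 173, 163 and 143 fpm in DKO, 237, 236 and 194 in AKO, 232, 253 and 245 in BKO and 234, 230.4 and 229.5 in WT. DKO was again below all other libraries, by a smaller step (-0.54 ± 0.11, adjusted p = 0.0052). The citrate carrier Slc25a1, which supplies citrate for fatty acid and sterol synthesis, was at 189, 169 and 147 fpm in DKO, 158, 137 and 130.1 in AKO, 165, 188 and 199.6 in BKO and 147, 167 and 169 in WT. These groups overlapped, and the change was 0.06 ± 0.13, adjusted p = 0.745.

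Of the carriers of amino acids and the urea cycle, 4 of 7 tested were lower (57.1%, against 17.2% of all genes), none was called higher and 3 were not called. Slc25a15 (ORNT1), which brings ornithine into the matrix and lets citrulline out, was at 63.7, 74.7 and 68.3 fpm in DKO, 249, 275 and 275 in AKO, 270.2, 362 and 155 in BKO and 294, 289.6 and 285 in WT. DKO lay far below all 9 other libraries, and BKO replicate 3 was the lowest of those (-2.06 ± 0.23, adjusted p = 0.000372, the smallest p of the family). Slc25a13 (citrin), the aspartate-glutamate carrier of liver and other tissues, was at 21.7, 24.3 and 25.6 fpm in DKO, 39.5, 45.3 and 41.8 in AKO, 41.6, 41.3 and 35.3 in BKO and 42.3, 38 and 43.4 in WT. DKO did not overlap with any group (-0.77 ± 0.11, adjusted p = 0.00123). Slc25a44, a carrier of branched-chain amino acids, was at 48.7, 42.9 and 33.9 fpm in DKO, 66.2, 76.1 and 62.7 in AKO, 84, 84.7 and 58.6 in BKO and 75.3, 76.9 and 73.4 in WT. DKO was below all others, with BKO replicate 3 next (-0.85 ± 0.17, adjusted p = 0.00437). Slc25a22, a glutamate carrier, was at 189.6, 92.9 and 83.5 fpm in DKO, 156, 261 and 175 in AKO, 302, 272 and 162 in BKO and 378, 233 and 223 in WT. DKO lay below WT, but DKO replicate 1 was above 2 AKO libraries and BKO replicate 3 (-1.24 ± 0.35, adjusted p = 0.0227). Leaving out DKO replicates 2 or 3 or WT replicate 1 ended the Slc25a22 call (adjusted p up to 0.0888).

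The 3 uncalled members of this class were Slc25a12 (aralar), the other aspartate-glutamate carrier, Slc25a38, the glycine carrier of heme synthesis, and Slc25a29, a carrier of basic amino acids. Slc25a12 was at 23.5 ± 2.92 fpm in DKO and 19.7 ± 0.636 fpm in WT, a change of 0.24 ± 0.15, adjusted p = 0.242, and Slc25a38 at 20.3 ± 2.11 fpm in DKO and 20.1 ± 0.452 fpm in WT (0.01 ± 0.11, adjusted p = 0.96). Per kb, the ratio of Slc25a13 to Slc25a12 was 1.99, 1.84 and 2.43 in DKO, 4.13, 4.86 and 4.37 in AKO, 4.43, 4.65 and 2.73 in BKO and 4.30, 4.07 and 4.38 in WT. DKO did not overlap with any group, and BKO replicate 3 came nearest. This pair, like those below, was chosen after its values were seen, so it carries no test.

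**Figure D2:**
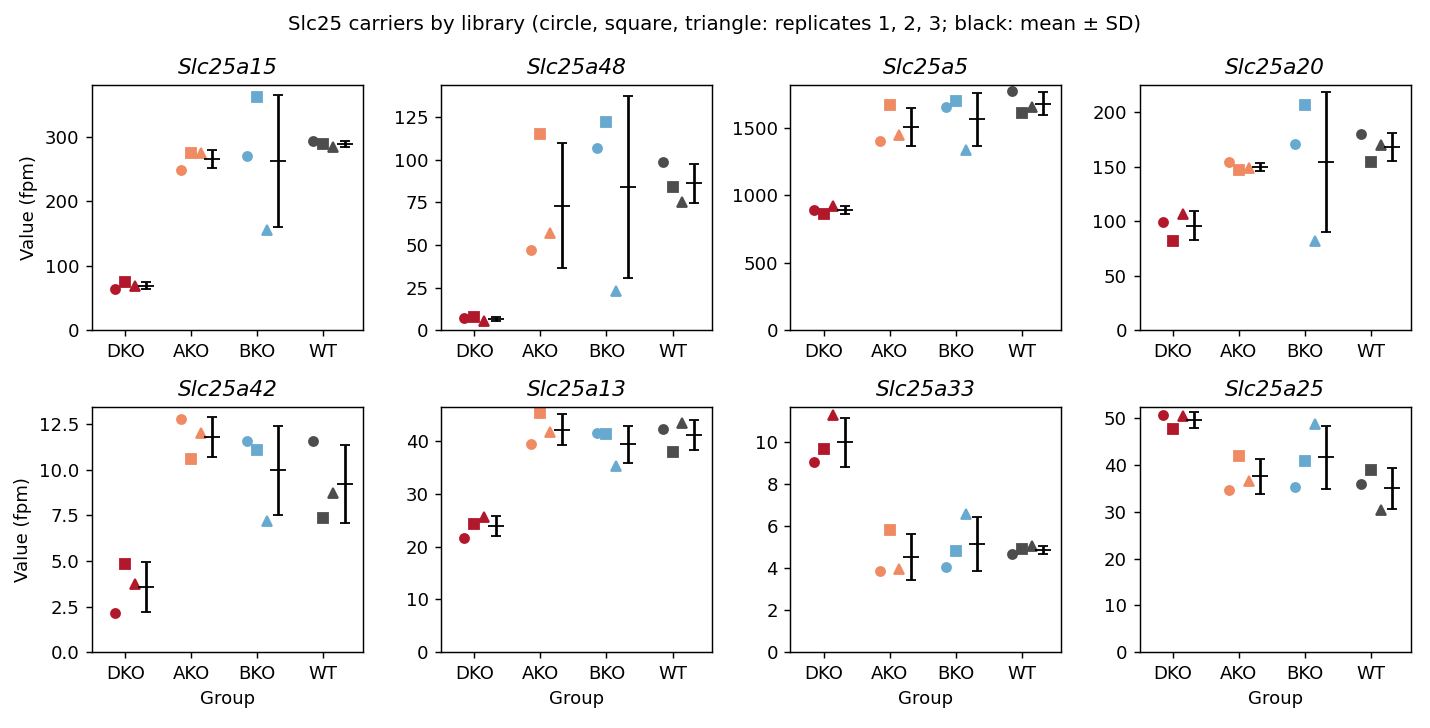
Values in fpm (linear axes from 0) of 8 Slc25 carriers by group, with DKO, AKO, BKO and WT from left to right, coloured points for libraries and black bars for the mean ± SD of 3. In Slc25a15, Slc25a48, Slc25a5 and Slc25a13 the DKO points lie below all others, in Slc25a20 BKO replicate 3 (82.3 fpm) lies among them, and in Slc25a33 they lie above all others.

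Slc25a20, the only member that carries acylcarnitines and so feeds fatty acid oxidation, averaged 95.9 ± 13.2 fpm in DKO and 168 ± 12.9 fpm in WT. Library values were 98.9, 81.5 and 107 fpm in DKO, 154, 147 and 149 in AKO, 171, 207 and 82.3 in BKO and 180.2, 154 and 170.3 in WT. DKO was below AKO and WT, and BKO replicate 3 lay within the DKO range. The change against WT was -0.81 ± 0.27, adjusted p = 0.0411. The Slc25a20 call held only without BKO replicates 1, 2 or 3 (adjusted p up to 0.132 otherwise). edgeR (adjusted p = 0.0512) did not call it, while DESeq2 did (adjusted p = 0.016).

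Carriers of cofactors and glutathione gave 3 falls among 9 tested (33.3%, against 17.2% of all genes) and 1 rise (11.1%, near the 14.6% of all genes). Slc25a42, which carries coenzyme A and adenine nucleotides, was at 2.13, 4.85 and 3.75 fpm in DKO, 12.8, 10.6 and 12 in AKO, 11.6, 11.1 and 7.19 in BKO and 11.6, 7.35 and 8.75 in WT. DKO was below every other library (-1.19 ± 0.26, adjusted p = 0.00668). Slc25a51, a carrier of NAD, was at 87.3, 84.8 and 77.3 fpm in DKO, 130.1, 149 and 127 in AKO, 162, 164 and 96.6 in BKO and 138, 125 and 132 in WT. DKO lay below all others, with BKO replicate 3 closest (-0.66 ± 0.18, adjusted p = 0.0188). Leaving out DKO replicates 2 or 3 or WT replicates 1 or 3 ended the Slc25a51 call (adjusted p up to 0.063). Slc25a16, which has been linked to coenzyme A transport, was at 19.5, 22.9 and 23.6 fpm in DKO, 31, 35.1 and 31.8 in AKO, 28.6, 27.4 and 28.1 in BKO and 27.9, 27.7 and 30.8 in WT. DKO was below all other libraries by a small step (-0.38 ± 0.11, adjusted p = 0.0243). The Slc25a16 call was lost without DKO replicates 1 or 2 or WT replicates 1, 2 or 3 (adjusted p up to 0.0922).

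The rise in this class was in Slc25a32, a carrier of folate and FAD, at 16.2, 16.6 and 18 fpm in DKO, 10.6, 12.9 and 12.2 in AKO, 9.65, 10.8 and 16.6 in BKO and 10.2, 12.3 and 11.2 in WT. DKO lay above AKO and WT, with BKO replicate 3 in the DKO range (0.56 ± 0.18, adjusted p = 0.0398). The Slc25a32 call held only without AKO replicate 2 or BKO replicates 1, 2 or 3 (adjusted p up to 0.125 otherwise). The peroxisomal carrier Slc25a17, the S-adenosylmethionine carrier Slc25a26 and the glutathione carriers Slc25a39 and Slc25a40 were not called, with log2 changes of -0.12 to 0.26.

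The iron carriers of the mitochondrion, Slc25a37 (mitoferrin 1) and Slc25a28 (mitoferrin 2), were not called against WT. Slc25a37 was at 76.5, 64.1 and 65.3 fpm in DKO, 89.2, 125 and 87.6 in AKO, 113, 111 and 132 in BKO and 107, 85 and 86.1 in WT, with DKO below all other libraries (-0.42 ± 0.16, adjusted p = 0.0615). Slc25a28 was at 19.6, 23.3 and 20.6 fpm in DKO, 14.2, 10.5 and 13.3 in AKO, 15.7, 15.4 and 27.4 in BKO and 16.4, 15.1 and 12.7 in WT, with DKO above AKO and WT (0.50 ± 0.21, adjusted p = 0.0967). The ratio of Slc25a28 to Slc25a37 per kb averaged 0.847 ± 0.147 in DKO and 0.434 ± 0.0432 in WT. Likewise the ratio of the pyrimidine carriers Slc25a33 to Slc25a36 was 2.27, 1.99 and 1.85 in DKO, 0.500, 0.723 and 0.493 in AKO, 0.512, 0.649 and 1.32 in BKO and 0.709, 0.679 and 0.620 in WT, so that Slc25a33 was the higher of the pair per kb in DKO and BKO replicate 3 and the lower in the other 8 libraries. Of the 50-base words of Slc25a36, 11.8% are shared with another annotated transcript, as are 12.6% of those of Slc25a33, so the reads of both may have been split or pooled. The ratio of the coenzyme A pair Slc25a42 to Slc25a16 averaged 0.157 ± 0.0504 in DKO and 0.316 ± 0.0801 in WT.

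Of the members related in sequence to uncoupling proteins, Slc25a14 was at 6.64, 5.68 and 7.64 fpm in DKO, 4.44, 6.30 and 4.21 in AKO, 4.31, 4.73 and 4.77 in BKO and 4.40, 4.32 and 4.74 in WT. DKO replicates 1 and 3 were above every library outside DKO, and AKO replicate 2 exceeded DKO replicate 2 (0.47 ± 0.17, adjusted p = 0.0495). The Slc25a14 call held only without AKO replicate 2 or BKO replicate 3 (adjusted p up to 0.141 otherwise). Slc25a30 was at 3.88 ± 0.535 fpm in DKO and 2.31 ± 0.295 fpm in WT and was not called (0.56 ± 0.20, adjusted p = 0.0553). Slc25a14, Slc25a53 and Slc25a5 are the X-linked members that passed the filter, and the Xist state was uneven between groups. With Xist state as a term in the fit, Slc25a14 (adjusted p = 0.125) and Slc25a53 (adjusted p = 0.09) were not called, while Slc25a5 was (adjusted p = 0.000415). That fit called 24 carriers in all, 17 of them among the 19, and 38.6% of all genes.

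The less characterised members held the largest fall, and 4 of 7 tested were lower (57.1%, against 17.2% of all genes). These 4 include Slc25a53, which passed the filter through AKO and WT libraries alone and is not read as support. Slc25a48, reported as a mitochondrial choline carrier, was at 6.89, 7.80 and 5.21 fpm in DKO, 47.2, 115 and 56.9 in AKO, 107, 122 and 23.2 in BKO and 98.6, 84 and 75.5 in WT. The DKO libraries were far below all others, BKO replicate 3 was next, and the AKO libraries ranged widely (-3.52 ± 0.53, adjusted p = 0.00134). Slc25a34 was at 6.94, 10.7 and 7.09 fpm in DKO, 20.8, 22.7 and 13.2 in AKO, 19.3, 24.2 and 15.5 in BKO and 19.2, 15.8 and 15.6 in WT. DKO lay below all other libraries (-0.97 ± 0.24, adjusted p = 0.0117). Slc25a35 was at 5.77, 5.83 and 5.44 fpm in DKO, 12.2, 12.7 and 11.7 in AKO, 12.5, 10.6 and 7.27 in BKO and 12, 11.9 and 11.8 in WT, with DKO again lowest and BKO replicate 3 next (-0.95 ± 0.17, adjusted p = 0.00267). Slc25a53 was at 0.776, 0.795 and 0.366 fpm in DKO, 1.35, 1.09 and 1.45 in AKO, 0.788, 0.845 and 0.587 in BKO and 1.06, 3.62 and 1.73 in WT. BKO lay in or near the DKO range, and WT replicate 2 was far above the other WT libraries (-0.86 ± 0.26, adjusted p = 0.0287). Leaving out DKO replicates 1, 2 or 3 or WT replicates 2 or 3 ended the Slc25a53 call (adjusted p up to 0.0932). The log2 change was -0.54 without WT replicate 2.

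Slc25a45 was at 1.31, 1.29 and 1.28 fpm in DKO, 8.76, 19.4 and 4.56 in AKO, 5.57, 10.4 and 0.587 in BKO and 6.56, 6.84 and 6.82 in WT. The DKO and WT libraries were each tightly grouped and did not overlap, but AKO replicate 2 was the highest and BKO replicate 3 the lowest of all 12. The change of -1.76 ± 0.62 was not called (adjusted p = 0.0524), but it was called in 11 of 24 alternatives, over which the adjusted p ran from 7.92e-05 (only DKO and WT in the fit) to 0.117. Calls with all libraries in the fit came from edgeR (adjusted p = 0.0486), DESeq2 (0.00591), scaling by library sums (0.0499), quantile scaling (0.0364), a term for Xist state (0.00375) and a replicate block. Leaving out AKO replicate 2, BKO replicate 2 or BKO replicate 3 also gave a call (adjusted p = 0.0433, 0.028 and 0.00361), as did leaving out BKO replicate 3 and WT replicate 2 together. Slc25a46, an outer membrane member, and Slc25a47 were at 58.3 ± 2.88 fpm in DKO and 62.2 ± 7.66 fpm in WT, and 1.24 ± 0.282 fpm in DKO and 1.01 ± 0.476 fpm in WT, neither called (-0.09 ± 0.13, adjusted p = 0.618, and 0.17 ± 0.23, adjusted p = 0.573).

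**Figure D3:**
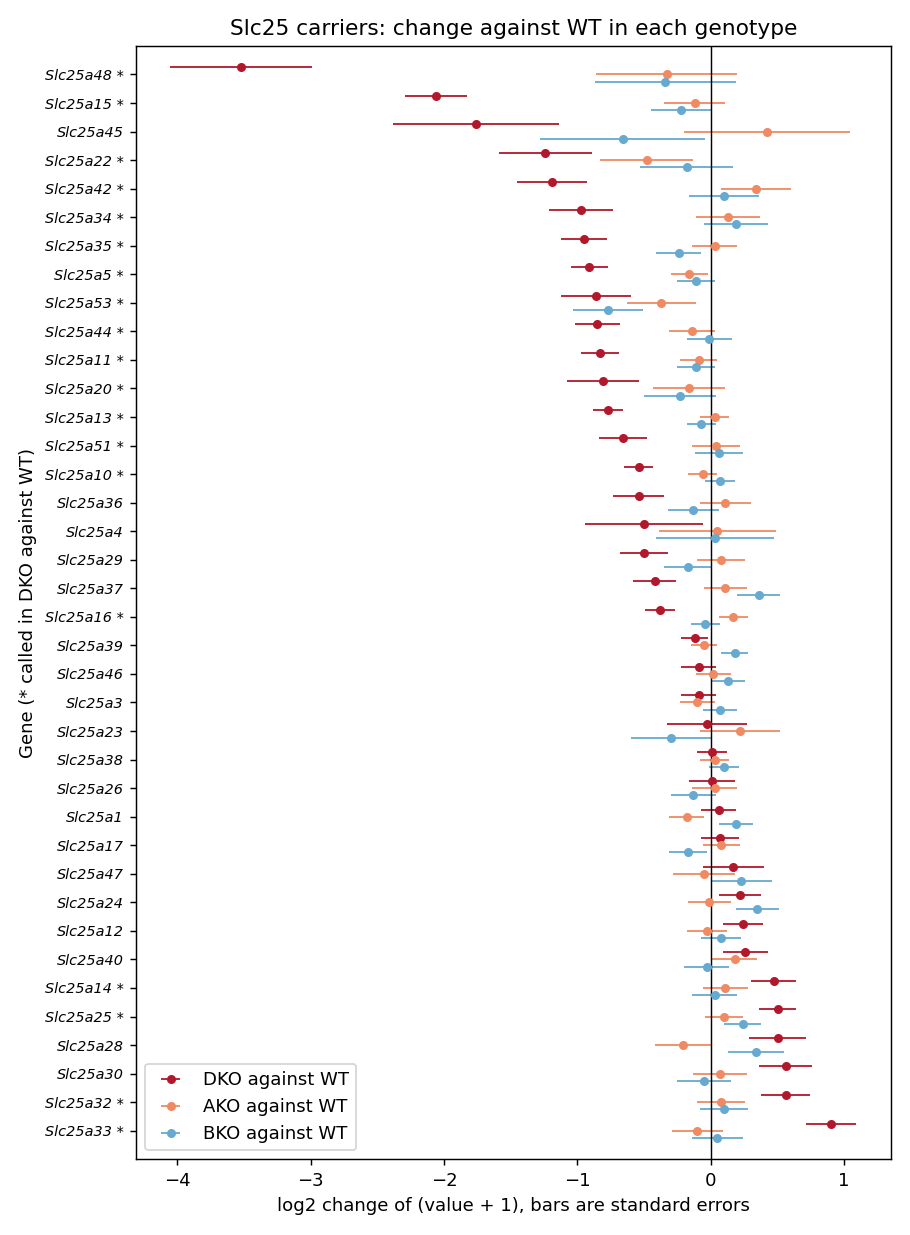
Log2 change of fpm + 1 against WT, with standard errors as bars, for DKO, AKO and BKO in 38 of the 39 tested Slc25 carriers, ordered by the DKO change. DKO runs between -3.52 and 0.90, while AKO stays within -0.48 to 0.42 and BKO within -0.77 to 0.36, all 3 against the same WT libraries.

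The 8 carriers that did not pass the filter were Slc25a2, Slc25a18, Slc25a21, Slc25a27, Slc25a31, Slc25a41, Slc25a43 and Slc25a54. Their highest value in any library was 0.984 fpm, and 3 of them had no read in any library. They include the testis adenine nucleotide carrier Slc25a31 and the second glutamate carrier Slc25a18. Of the other tested carriers not called in DKO against WT, Slc25a36 was at 13.9 ± 2.99 fpm in DKO and 20.3 ± 2.13 fpm in WT (-0.54 ± 0.19, adjusted p = 0.0535), Slc25a23 at 14.4 ± 5.22 fpm in DKO and 14.2 ± 2.70 fpm in WT (-0.03 ± 0.30, adjusted p = 0.95) and Slc25a29 at 1.82 ± 0.319 fpm in DKO and 2.97 ± 0.373 fpm in WT (-0.50 ± 0.18, adjusted p = 0.0583).

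The single losses changed no carrier beyond the threshold. In AKO against WT limma called 0 of 39 carriers (0.00731% of all genes were called), 0 had an unadjusted p under 0.05 (0.995% of all genes), and edgeR and DESeq2 called 0. Log2 changes ran from -0.48 in Slc25a22 to 0.42 in Slc25a45 (adjusted p = 1 for both), with a median of 0.03 over the carriers and -0.01 over all genes. In BKO against WT limma again called 0 (0.0439% of all genes), with 3 carriers at an unadjusted p under 0.05 (10.7% of all genes), and edgeR and DESeq2 called 0. Those 3 were Slc25a53 (-0.77 ± 0.26, adjusted p = 0.388), Slc25a37 (0.36 ± 0.16, adjusted p = 0.447) and Slc25a24 (0.35 ± 0.16, adjusted p = 0.458). Without BKO replicate 3 limma also called 0 (0.0586% of all genes), and the changes ran from -0.71 to 0.67. Again 3 carriers had an unadjusted p under 0.05, now Slc25a53 (-0.71 ± 0.29), Slc25a4 (0.67 ± 0.23) and Slc25a51 (0.31 ± 0.1). The share of all genes under that p was not computed for this fit. Slc25a37 and Slc25a24 were no longer under that p, at 0.28 ± 0.16 and 0.23 ± 0.15. The change turned direction in 12 of the 39 carriers, Slc25a15 and Slc25a48 among them. A p that misses the threshold does not show that these levels were alike: standard errors were wide for some carriers. Slc25a15 stood at -0.12 ± 0.23 in AKO, and at -0.22 ± 0.23 in BKO or 0.11 ± 0.13 without BKO replicate 3. Slc25a48 stood at -0.33 ± 0.53 in AKO, and at -0.34 ± 0.53 in BKO or 0.41 ± 0.31 without that library.

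Most carriers called between DKO and either single loss were lower in DKO. These comparisons use the same DKO libraries as DKO against WT, so their calls are not independent of it. In DKO against AKO 18 carriers were called, 2 higher and 16 lower (32.2% of all genes called, 15.3% higher and 17% lower), and in DKO against BKO 15, with 1 higher and 14 lower (23% called, 11% higher and 12% lower). A total of 13 carriers were called in all 3 comparisons, 12 lower and Slc25a33 higher. The share of all genes called in all 3 was not computed, so this count is not read as a result about the carriers. The called changes against AKO ran from -3.18 ± 0.53 in Slc25a48 to 1.00 ± 0.19 in Slc25a33, and against BKO from -3.18 ± 0.53 to 0.85 ± 0.19 in the same genes. Slc25a15 was at a log2 change of -1.94 ± 0.23, adjusted p = 0.000523 against AKO and -1.83 ± 0.23, adjusted p = 0.000987 against BKO. Left-out libraries gave 13 to 23 called carriers against AKO, with 20.5% to 45.4% of all genes called. Against BKO they gave 11 (without BKO replicate 1, 11.9% of all genes) to 26 (without BKO replicate 3, 45.6% of all genes). With only DKO and BKO in the fit 5 carriers were called (5.71% of all genes), namely Slc25a13, Slc25a15, Slc25a34, Slc25a37 and Slc25a48. All other calls against BKO were lost in that fit, those of Slc25a5, Slc25a10, Slc25a11, Slc25a33, Slc25a42 and Slc25a44 among them. Without BKO replicate 3 the changes against BKO were -3.93 ± 0.31 in Slc25a48, -2.17 ± 0.13 in Slc25a15 and 1.01 ± 0.18 in Slc25a33. BKO replicate 3 lay toward DKO in most carriers called in DKO against WT. Wider changes and more calls against BKO follow from leaving it out and are not read as support. No carrier call was lost and 11 were gained, while calls over all genes rose from 23% to 45.6%. Of those gained, 6 were lower (Slc25a4, Slc25a20, Slc25a22, Slc25a29, Slc25a36 and Slc25a45) and 5 higher (Slc25a12, Slc25a25, Slc25a28, Slc25a30 and Slc25a32). Slc25a4 was at -0.53 ± 0.44, adjusted p = 0.404 with that library and at -1.17 ± 0.23, adjusted p = 0.00206 without it.

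A set of 6 carriers was called in these comparisons and not against WT. Against AKO they were Slc25a28 (0.71 ± 0.21, adjusted p = 0.0281), Slc25a29 (-0.58 ± 0.18, adjusted p = 0.0339), Slc25a36 (-0.65 ± 0.19, adjusted p = 0.0254), Slc25a37 (-0.53 ± 0.16, adjusted p = 0.0261) and Slc25a45 (-2.17 ± 0.62, adjusted p = 0.0228). Slc25a29 was at 2.18, 1.67 and 1.60 fpm in DKO, 3.51, 3.07 and 2.98 in AKO, 3.20, 2.76 and 1.76 in BKO and 3.34, 2.60 and 2.98 in WT, and Slc25a36 at 11.1, 13.5 and 17 fpm in DKO, 21.5, 22.4 and 22.2 in AKO, 22.1, 20.7 and 13.8 in BKO and 18.3, 20.2 and 22.6 in WT. In both genes DKO lay below all AKO and WT libraries, with BKO replicate 3 in or beside the DKO range. Against BKO they were Slc25a37 (-0.78 ± 0.16, adjusted p = 0.00675) and Slc25a39 (-0.29 ± 0.10, adjusted p = 0.0492), and Slc25a39 was at 115, 125 and 112 fpm in DKO, 124, 135 and 111 in AKO, 142, 141 and 149.8 in BKO and 130, 123 and 128 in WT. The DKO libraries overlapped with AKO and WT in Slc25a39 and lay below BKO. Without BKO replicate 3 these changes were -0.70 ± 0.16 and -0.27 ± 0.10, both called. The Slc25a28 call was lost without DKO replicates 2 or 3 or AKO replicates 2 or 3 (adjusted p up to 0.0974). Leaving out DKO replicates 2 or 3, AKO replicates 1, 2 or 3 or WT replicate 3 ended the Slc25a29 call (adjusted p up to 0.103). The Slc25a36 call was lost without DKO replicates 1 or 2 or AKO replicates 1, 2 or 3 (adjusted p up to 0.0854). Leaving out DKO replicates 2 or 3 or AKO replicate 2 ended the Slc25a37 call against AKO (adjusted p up to 0.0889). The Slc25a45 call was lost without DKO replicates 1, 2 or 3 or AKO replicates 1 or 2 (adjusted p up to 0.0852). The Slc25a39 call held only without AKO replicate 2 or BKO replicate 3 (adjusted p up to 0.113 otherwise). Among carriers called in all 3 comparisons, the Slc25a51 call against BKO was lost without DKO replicate 3 or BKO replicates 1 or 2 (adjusted p up to 0.0733). Leaving out AKO replicate 2 ended the Slc25a51 call against AKO (adjusted p up to 0.0531). The Slc25a16 call against BKO held only without DKO replicate 3 or BKO replicate 3 (adjusted p up to 0.142 otherwise). Leaving out BKO replicate 1 ended the Slc25a35 call against BKO (adjusted p up to 0.0582).

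The interaction, DKO minus AKO minus BKO plus WT, asks whether the double loss differs from the sum of both single losses on the log scale. It was called for 3 carriers, all lower (3.96% of all genes called, 2.08% higher and 1.88% lower), with 14 at an unadjusted p under 0.05 (23.9% of all genes). These were Slc25a15 (-1.71 ± 0.33, adjusted p = 0.0242), Slc25a42 (-1.62 ± 0.36, adjusted p = 0.0411) and Slc25a13 (-0.73 ± 0.16, adjusted p = 0.038). None of them was called in AKO or BKO against WT. The count rested on single libraries: it was 21 without BKO replicate 3, 1 without AKO replicate 3 or BKO replicate 2, and 0 when any 1 of the other 9 was left out. Calls over all genes moved as well, to 30.6% without BKO replicate 3 and 0.689% to 1.75% without any other single library. The rise to 21 is not read as support, since BKO replicate 3 lay toward DKO in most carriers called in DKO against WT. Over the left-out libraries the adjusted p reached 0.0664 in Slc25a15, 0.0971 in Slc25a42 and 0.0958 in Slc25a13. The 3 genes kept their direction in each case, with changes of -2.05 to -1.44 in Slc25a15, -1.82 to -1.37 in Slc25a42 and -0.81 to -0.67 in Slc25a13. edgeR called 2 carriers (2.37% of all genes), of which only Slc25a15 was among the 3, with Slc25a42 at an adjusted p of 0.0545 and Slc25a13 at 0.0507. With scaling by library sums 2 were called (3.99% of all genes), again with only Slc25a15 of the 3 (Slc25a42 at an adjusted p of 0.0503 and Slc25a13 at 0.0558). DESeq2 called 13 (9.61% of all genes), the 3 included.

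Genes that act beside these carriers were followed in lists that, like the carriers, were drawn up with earlier results of these data known. In DKO against WT, 8 of 14 tested genes of the urea cycle and of proline and glutamine use were lower and 2 higher (57.1% and 14.3%, against 17.2% and 14.6% of all genes), with a median log2 change of -0.71, against -0.01 over all genes. Oat, which makes ornithine from glutamate semialdehyde, was at 179.7 ± 18.8 fpm in DKO and 839 ± 106 fpm in WT (log2 change -2.22 ± 0.28, adjusted p = 0.000661), and Otc, which joins ornithine to carbamoyl phosphate to give citrulline, at 54.9 ± 7.17 fpm in DKO and 172 ± 15.6 fpm in WT (log2 change -1.64 ± 0.17, adjusted p = 0.000245). Cps1, which makes carbamoyl phosphate, was at 166 ± 40.8 fpm in DKO and 569.6 ± 61.5 fpm in WT (log2 change -1.80 ± 0.19, adjusted p = 0.000256). All 3 act in the matrix on the substrates that Slc25a15 carries or on their partners.

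Of 17 genes of fatty acid oxidation and the carnitine shuttle, 12 were lower and none was called higher (70.6% and 0%, median -0.69). Hadh, a dehydrogenase of beta oxidation, was at 152 ± 6.69 fpm in DKO and 555 ± 35 fpm in WT (log2 change -1.86 ± 0.24, adjusted p = 0.000728). Etfdh, which passes electrons from acyl-CoA dehydrogenases to ubiquinone, was at 63.9 ± 3.28 fpm in DKO and 109 ± 7.10 fpm in WT (log2 change -0.76 ± 0.10, adjusted p = 0.000903), and the very-long-chain dehydrogenase Acadvl at 131 ± 6.72 fpm in DKO and 212 ± 18.9 fpm in WT (log2 change -0.69 ± 0.10, adjusted p = 0.00132). In the citrate cycle and malate shuttle 14 of 23 were lower and 1 higher (60.9% and 4.35%, median -0.44). The malic enzymes went opposite ways, the mitochondrial Me2 at 135 ± 7.72 fpm in DKO and 624 ± 75.2 fpm in WT (log2 change -2.20 ± 0.31, adjusted p = 0.000956) and the cytosolic Me1 at 88.8 ± 16.4 fpm in DKO and 28.7 ± 5.13 fpm in WT (log2 change 1.59 ± 0.23, adjusted p = 0.00107). Sdhb, a subunit of succinate dehydrogenase, was at 131 ± 15 fpm in DKO and 248 ± 18.9 fpm in WT (log2 change -0.92 ± 0.15, adjusted p = 0.00181). Of 16 genes of coenzyme A and other cofactor synthesis 9 were lower and 1 higher (56.2% and 6.25%, median -0.48). Pank1 and Pank3, kinases that begin coenzyme A synthesis, were at 12.7 ± 1.13 fpm in DKO and 26.7 ± 1.71 fpm in WT (log2 change -1.02 ± 0.13, adjusted p = 0.000661), and 181 ± 9.08 fpm in DKO and 391 ± 14.1 fpm in WT (log2 change -1.10 ± 0.15, adjusted p = 0.000801). Gss, which completes glutathione, was at 269.9 ± 32.3 fpm in DKO and 129 ± 13 fpm in WT (log2 change 1.05 ± 0.22, adjusted p = 0.00556).

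In 2 lists the share of falls was near that of all genes (17.2%) and is not read as a result about them. For heme and iron-sulfur synthesis 3 of 15 were lower and 1 higher (20% and 6.67%, median -0.25). Hscb, a chaperone of iron-sulfur assembly, was at 3.97 ± 0.802 fpm in DKO and 10.3 ± 1.19 fpm in WT (log2 change -1.20 ± 0.22, adjusted p = 0.00348). Fech, which inserts iron to form heme, was at 29.2 ± 1.12 fpm in DKO and 45.1 ± 5.02 fpm in WT (log2 change -0.61 ± 0.11, adjusted p = 0.00366), and Isca1 at 34.7 ± 2.31 fpm in DKO and 45.8 ± 2.09 fpm in WT (log2 change -0.39 ± 0.10, adjusted p = 0.0114). The Isca1 call was lost without WT replicate 1 (adjusted p up to 0.0518). The list named other inner membrane transport gave 4 lower and 2 higher of 17 (23.5% and 11.8%, median -0.19). Its name is that of the list, and the membrane in which each product sits, that of Abcb6 included, was not examined. The serine transporter Sfxn1 was at 84.4 ± 7.80 fpm in DKO and 179.6 ± 1.84 fpm in WT (log2 change -1.08 ± 0.15, adjusted p = 0.000801), and the porphyrin-linked transporter Abcb6 at 17.1 ± 1.59 fpm in DKO and 54.2 ± 6.90 fpm in WT (log2 change -1.61 ± 0.34, adjusted p = 0.00623). Ccdc109b (Mcub), a subunit of the calcium uniporter, was at 2.52 ± 0.346 fpm in DKO and 0.809 ± 0.182 fpm in WT (log2 change 0.96 ± 0.17, adjusted p = 0.00269). Its WT mean lay below the filter of 1 fpm, which favours a rise, so it is not read as support, though the list count includes it.

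In the outer membrane pores and the import path that inserts carriers, none of 14 was called lower and 2 were higher (14.3%, near the 14.6% of all genes, median 0.40). They were the import receptor Tomm22 at 159.7 ± 33.4 fpm in DKO and 108 ± 3.74 fpm in WT (log2 change 0.55 ± 0.18, adjusted p = 0.0426) and the chaperone Timm13 at 102 ± 22.1 fpm in DKO and 68 ± 2.23 fpm in WT (log2 change 0.56 ± 0.19, adjusted p = 0.0433). Leaving out DKO replicates 2 or 3, AKO replicates 1 or 3 or WT replicates 1, 2 or 3 ended the Tomm22 call (adjusted p up to 0.14). The Timm13 call held only without BKO replicates 1, 2 or 3 (adjusted p up to 0.143 otherwise). The pore Vdac2 was not called, at 773 ± 92.7 fpm in DKO and 582 ± 4.23 fpm in WT (log2 change 0.40 ± 0.15, adjusted p = 0.0558). In the folate, glycine and one-carbon list none of 10 was called lower and 1 was higher (10%, against 14.6% of all genes, median 0.51). This was Aldh1l2 at 1.76 ± 0.985 fpm in DKO and 0.358 ± 0.0618 fpm in WT (log2 change 0.97 ± 0.28, adjusted p = 0.0249). It lay below the filter of 1 fpm in WT and passed only through libraries of other groups. Its rise is not read as support, though the list count includes it. Leaving out DKO replicate 2 or WT replicates 1, 2 or 3 ended the Aldh1l2 call (adjusted p up to 0.0987). The folate enzymes Mthfd2 at 39.4 ± 10.9 fpm in DKO and 15.4 ± 5.22 fpm in WT (log2 change 1.30 ± 0.49, adjusted p = 0.0622) and Mthfd2l at 7.18 ± 0.898 fpm in DKO and 4.76 ± 1.00 fpm in WT (log2 change 0.52 ± 0.24, adjusted p = 0.119) were not called. The carrier relatives with other symbols held 2 falls of 3 tested (66.7%, median -0.47), Mtch2 at 180.3 ± 27.2 fpm in DKO and 316 ± 14.2 fpm in WT (log2 change -0.82 ± 0.16, adjusted p = 0.00461) and Mtch1 at 96.7 ± 6.89 fpm in DKO and 134 ± 8.25 fpm in WT (log2 change -0.47 ± 0.13, adjusted p = 0.0179). The Mtch1 call was lost without DKO replicate 3 or WT replicate 1 (adjusted p up to 0.0704). The uncoupling protein Ucp2 was not called, at 406 ± 63.3 fpm in DKO and 517 ± 50.8 fpm in WT (log2 change -0.36 ± 0.15, adjusted p = 0.0971). Of 15 regulators of mitochondrial genes 6 were lower and 2 higher (40% and 13.3%, median -0.45). The fatty acid receptor Ppara was at 6.51 ± 0.757 fpm in DKO and 63 ± 4.85 fpm in WT (log2 change -3.09 ± 0.39, adjusted p = 0.000606), and the enterocyte factors Hnf4a and Hnf4g were at 803 ± 126 fpm in DKO and 1329 ± 103 fpm in WT (log2 change -0.73 ± 0.14, adjusted p = 0.00371), and 185 ± 16.1 fpm in DKO and 433 ± 28.6 fpm in WT (log2 change -1.23 ± 0.24, adjusted p = 0.00395).

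**Figure D4:**
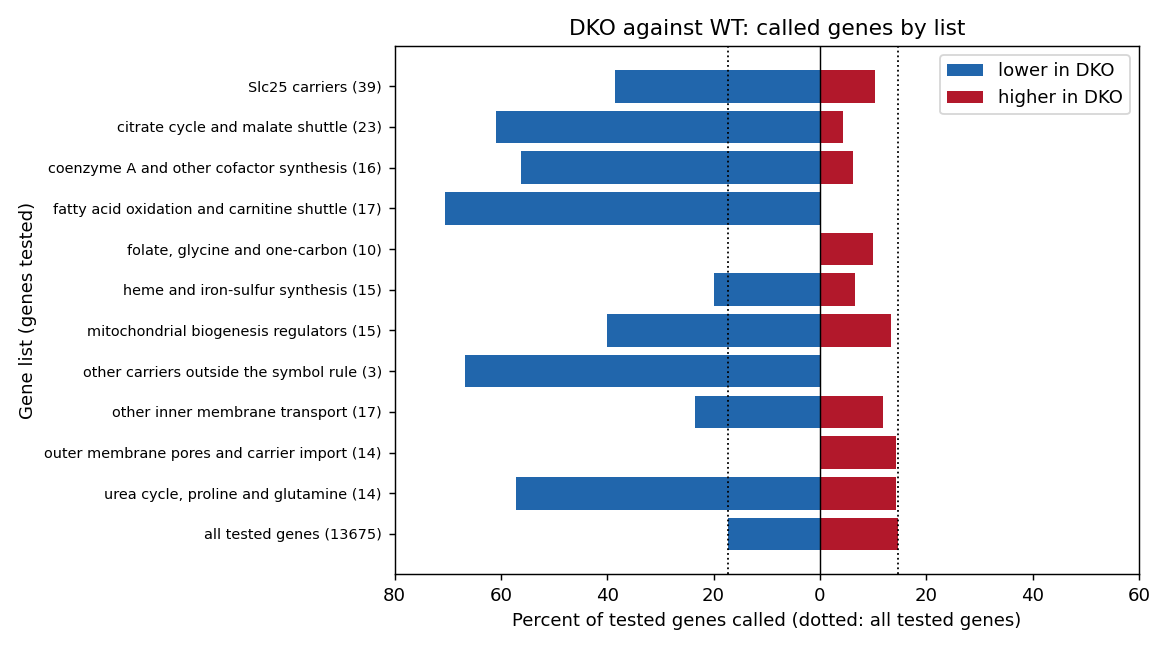
Percent of tested genes called lower (blue, left of 0) and higher (red, right of 0) in DKO against WT for the Slc25 carriers, 10 lists of neighbouring mitochondrial genes and all tested genes, with the number tested in parentheses and dotted lines at the shares of all genes, 17.2% lower and 14.6% higher. The carriers stand at 38.5% lower and 10.3% higher, and fatty acid oxidation at 70.6% lower and 0% higher.

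RefSeq promoter windows (GRCm38.p6, 250 bases before to 50 after a start site) existed for 12 of the 15 lower, 3 of the 4 higher and 16 of the 20 uncalled tested carriers. Since these genes move together or apart, the windows were searched on both strands for 5 fixed motifs. The E-box CACGTG was in 2 lower, 2 higher and 2 uncalled carriers, and in 8.09% of all genes with a window. The ETS motif CCGGAAGT was in 1 lower carrier (Slc25a20) and 4.31% of all genes, and the palindromic NRF1 motif, the HNF4 motif CAAAGTCCA and the nuclear receptor direct repeat with 1 base between its parts were in none of these carriers and in 1.07%, 0.555% and 0.0481% of all genes. No carrier window held matches to more than 1 of the motifs. The bases before 1 annotated start site are shown for the largest fall (Slc25a48), for a fall called in all comparisons with DKO (Slc25a13) and for the largest rise (Slc25a33), 5′ to 3′ on the gene's strand, with E-box letters in capitals:
Slc25a48 (chr13:56438105-56438354, plus strand): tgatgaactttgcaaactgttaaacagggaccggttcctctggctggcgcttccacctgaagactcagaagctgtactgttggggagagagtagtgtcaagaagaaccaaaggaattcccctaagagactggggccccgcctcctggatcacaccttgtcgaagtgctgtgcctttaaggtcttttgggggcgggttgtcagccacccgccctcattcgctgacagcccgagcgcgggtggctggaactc
Slc25a13 (chr6:6217174-6217423, minus strand): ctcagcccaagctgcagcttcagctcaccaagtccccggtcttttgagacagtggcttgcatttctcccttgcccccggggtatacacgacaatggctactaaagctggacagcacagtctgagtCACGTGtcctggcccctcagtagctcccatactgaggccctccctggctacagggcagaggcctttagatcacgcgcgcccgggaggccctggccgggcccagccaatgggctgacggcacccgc
Slc25a33 (chr4:149774268-149774517, minus strand): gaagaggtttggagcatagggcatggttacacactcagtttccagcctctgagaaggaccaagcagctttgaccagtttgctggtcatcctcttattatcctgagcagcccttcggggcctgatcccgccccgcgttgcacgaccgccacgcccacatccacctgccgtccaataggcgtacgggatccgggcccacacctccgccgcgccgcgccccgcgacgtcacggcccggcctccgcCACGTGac
The E-box stands before a start site of a gene that fell and of a gene that rose, and the Slc25a48 sequence holds none of the motifs. The Slc25a48 stretch lies wholly inside the annotated gene, which begins at 56437960, so it does not cover bases before the gene. The Slc25a13 stretch lies partly inside its gene, which ends at 6217304. Both stand before internal start sites. A match is a description of letters and not a binding site.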

How the data were processed

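RNA of whole jejunum was sequenced with a kit that does not mark strand, named in the labels' protocols, and the submitters' processing notes name FastQC 0.11.3, Trimmomatic 0.36, DESeq2 and the mm9 build. The authors deposited 1 table of fpm, a depth-scaled signal per gene without length correction. Divided by the value of 1 read, 100% of its values were whole within 0.001 reads, so reads could be recovered for the count tests. The fit used limma 3.58.1 in R 4.3.3 on log2(fpm + 1), with trended variances, all 12 libraries and 1 coefficient per group, after a filter of at least 1 fpm in at least 3 libraries. In DKO against WT it called 4348 genes, edgeR 4.0.16 on the recovered reads 4145 and DESeq2 1.42.0 5142. The limma code was tested on simulated data. Carriers called in any of 6 comparisons are named with their changes. Library values are given for called carriers, and for uncalled carriers with a group mean over 100 fpm, and up to 3 genes per list with the smallest p are named. The carriers and lists were chosen with earlier results of these data known. Levels per kb used GENCODE M21 lengths, and promoter sequences are of GRCm38.p6, another build than the authors' mm9, matched by symbol only. Alternatives were other pseudocounts, filters and scalings, fits of the compared groups alone, a replicate block, an Xist term, both count tests and left-out libraries. The values of 1 uncalled carrier are not reported here, though the counts and medians include it.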

Additional observations from a re-analysis of the deposited data

Results flagged for a closer look

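The effect of the double loss differed from the sum of the single losses, by a test of the interaction over all genes in limma, for Slc25a15 (log2 interaction -1.71, adjusted p = 0.0242), Slc25a42 (-1.62, adjusted p = 0.0411) and Slc25a13 (-0.73, adjusted p = 0.038). All 3 were called without BKO replicate 3, which lay toward DKO in most called carriers, so those calls are not read as support. Most other left-out libraries ended the calls. Over 23 alternatives Slc25a15 was called in 13, and Slc25a42 and Slc25a13 in 8 each. Slc25a42 and Slc25a13 were also not called with edgeR, with scaling by library sums or with the replicate block, under each of which Slc25a15 was.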

How the results depend on the processing

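Over 1339 values, under the alternatives, of carriers called in a comparison and of Slc25a45 in DKO against WT, 1153 stayed on their side of the threshold, 175 calls were lost, 11 were gained and none changed direction. With 1 library left out, DKO against WT gave 11 to 25 called carriers (19.9% to 45.1% of all genes) and the interaction 0 to 21 (0.689% to 30.6%). DKO against AKO gave 13 to 23 (20.5% to 45.4%) and DKO against BKO 11 to 26 (11.9% to 45.6%). Called carriers numbered 0 to 0 in AKO and in BKO against WT. DKO against BKO gave 5 with only the groups compared (5.71% of all genes) and 23 without BKO replicate 3 and WT replicate 2 together (45.5%). The interaction gave 12 with the Xist term (12.4% of all genes), 13 with DESeq2 (9.61%) and 15 without those 2 libraries (25.2%), and it has no fit of fewer groups. The causes were not tested. Scaling by library sums shifted the median change of all genes to 0.137 in the interaction and 0.151 in DKO against BKO, and the genes called higher and lower became 2072 and 968 in DKO against BKO (1498 and 1646 as reported), 2315 and 1900 in DKO against WT (1995 and 2353) and 367 and 179 in the interaction (284 and 257). Same-numbered libraries correlated at -0.299 to 0.184, over 0.1 in 4 of 18 pairs, and 3 of 12 libraries correlated best with their own number, so the numbers were not read as pairing. With the replicate block DKO against WT gave 19 called carriers, AKO and BKO against WT 0 each, the interaction 2 (Slc25a15 of the 3 reported, with Slc25a42 at an adjusted p of 0.0646 and Slc25a13 at 0.0638), DKO against BKO 14 and DKO against AKO 18. Over all genes that fit called 29.6% in DKO against WT, 2.41% in the interaction, 21.1% in DKO against BKO and 30% in DKO against AKO. Low carriers such as Slc25a53 rest on few reads, and 3 libraries per group limit the precision of every change.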
